A study of Homo sapiens with 14 samples.

Results

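HLTF, SHPRH, SMARCAL1, ZRANB3, RAD18 and PRIMPOL encode proteins that act on stalled replication forks, and the splicing of their transcripts was compared between HEK293T cells with wild-type and mutant SF3B1. HEK293T is a human embryonic kidney cell line, and SF3B1 is the spliceosome subunit that helps to place the 3′ splice site of an intron. The 3 SF3B1-WT libraries came from cells with wild-type SF3B1, and the 3 SF3B1-MT libraries came from an isogenic line with the K700E substitution at the endogenous SF3B1 locus. Whether the MT libraries came from separate clones or cultures is not given in the sources used here, so the spread between libraries may be partly technical. The table of splicing events held 114349 events, of which 99 belonged to these 6 genes. The 81 events with a mean of at least 10 reads over both genotypes are described here, out of 94061 such events in the whole table. They comprised 57 cassette exons (SE), 14 mutually exclusive exon pairs (MXE), 5 alternative 3′ splice sites (A3SS), 4 alternative 5′ splice sites (A5SS) and 1 retained intron (RI). Many shared an exon, so the 81 events cover only 54 distinct variable regions. The table holds levels of splice forms and no expression values or allele counts, so neither the cell line nor the SF3B1 allele could be checked here, and the total expression of the 6 genes was not measured.

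A replication fork that meets a lesion or an obstacle can be turned back into a 4-armed structure, a step called fork reversal, or the damage can be bypassed by specialised polymerases or by priming anew beyond it. HLTF is a DNA translocase and ubiquitin ligase that reverses forks and extends ubiquitin chains on the sliding clamp PCNA, and SHPRH is a related ubiquitin ligase. RAD18 is the ligase that places the first ubiquitin on PCNA. SMARCAL1 and ZRANB3 are annealing helicases that also reverse forks, and PRIMPOL is a primase and polymerase that restarts synthesis beyond a block. Hotspot mutations of SF3B1 are known for the use of cryptic 3′ splice sites that lie a short way upstream of the normal ones.

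The event on which the results turn is an alternative 3′ splice site of HLTF. It uses an AG that lies 12 bases upstream of the usual AG, before exon 20 of the 25 exons of the canonical transcript. The 12 added bases lie at chr3:149041669-149041680 (GRCh38, minus strand), which is intron in the canonical transcript. Of the 9 annotated HLTF transcripts, 1 uses the upstream site and 4 use the downstream site. The junction falls in codon 733 of the 1009 codons of the coding sequence. The added bases keep the reading frame, add 4 codons and hold 0 in-frame stop codons. The sequences around this site are shown because they define both isoforms, with those of the second HLTF event and of the SHPRH events for comparison. They were read from the GRCh38 genome in the direction of the transcript, and the capitals mark the bases that only the longer form keeps.
HLTF, 12 added bases (chr3:149041660-149041689): atttttcagCCTTTTCTCTAGgaaatgata
HLTF, 3 added bases (chr3:149059793-149059822): ttgttgttttatcagCAGgatcttctaagg
SHPRH, 27 added bases (chr6:145933179-145933208): tagTTTTGAACAGTCTACCTTTTCTTTTAG
SHPRH, 19 added bases (chr6:145945633-145945662): atttagCATATCCTTTTACATTTAGctaca

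The forward primers that the study designed for its qPCR of HLTF separate the same 2 forms. In both, the lower case bases match the end of the upstream exon and the capitals match the bases past the junction, which are the usual exon 20 in the first and the added bases in the second.
HLTF WT isoform primer: ggcccctcagGAAATGATAC
HLTF Mut isoform primer: atggcccctcagCCTTTTCT

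The upstream HLTF site was used more often in every MT library than in any WT library. Its level, the fraction of length-normalised junction reads that support the longer form, was 0.127, 0.142 and 0.15 in the WT libraries. It was 0.401, 0.397 and 0.319 in the MT libraries. The groups did not overlap, and the lowest MT library lay 0.169 above the highest WT library. The mean level rose from 0.14 ± 0.0117 in WT to 0.372 ± 0.0463 in MT cells (SD, n = 3 each), a difference of 0.233 ± 0.0275 (SE) and a ratio of 2.67, at a mean of 137 reads. Read numbers here are the mean of the authors' values for both groups, and the MT value covers all 6 MT values listed in the table, of which only 3 have a column of levels and were analysed. In the limma model across 83581 events, the unadjusted p was 2.14e-05 and the adjusted p was 0.0543, so the event did not pass the threshold of 0.05. An exact two-sided permutation test over the 6 libraries gave p = 0.1, which is the smallest that 3 against 3 allows. With the p-values adjusted within each event type instead, a choice made after the adjusted p had been seen, the adjusted p in limma was 0.00669. The study picked HLTF for its qPCR because of the extent of its splicing change, so the direction of this event is not independent evidence. The table cannot tell apart a different choice of splice site from a different stability of the 2 isoforms.

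Of the 81 events, 74 could be tested, 6 had the same level in every library and 1 PRIMPOL event had no level in 1 library. An event was called when its adjusted p lay under 0.05 and its difference exceeded 0.1. In limma 0 of the 74 were called, against 0.0311% of all events tested. With adjustment within event type 1 of the 74 was called, the HLTF site, against 0.0395% of all events and 0.392% of alternative 3′ splice site events. The unadjusted p was under 0.05 for 1 member event, the HLTF site, against 4.47% of all events and 6.24% of alternative 3′ splice site events. WT and MT libraries did not overlap in 2 member events, both of HLTF, against 5.46% of all events. In 1 of these the difference was also at least 0.05, against 3.17% of all events. A difference of at least 0.1 was seen in 4 member events, against 5.86% of all events. The median absolute difference was 0.0142 over the 74 member events and 0.0137 over all events tested, and 36 member events were higher and 38 lower in MT. By each of the criteria on unadjusted p, separate libraries and size, the share of member events was thus at or below that of the whole table.

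**Figure D1:**
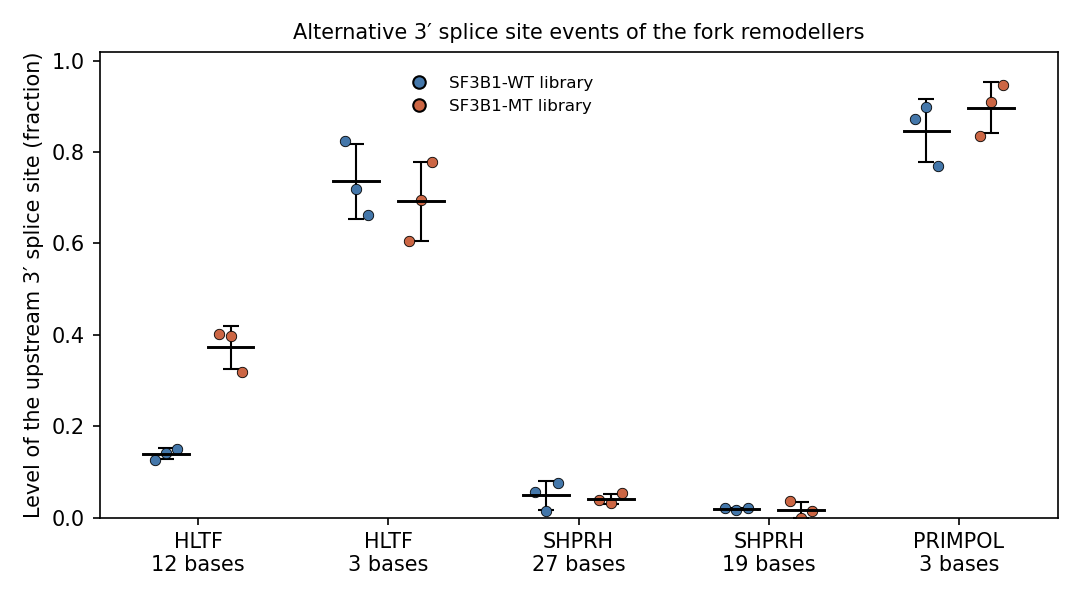
Level of the upstream 3′ splice site (vertical axis, fraction from 0 to 1) for the 5 alternative 3′ splice site events of HLTF, SHPRH and PRIMPOL, named with the number of added bases. Points are single HEK293T libraries (blue WT, orange MT), and bars are the mean ± SD of 3 libraries. The MT points of the 12-base HLTF event, from 0.319 to 0.401, all lie above its WT points, while the points of both genotypes overlap in the other 4 events.

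The other HLTF events gave the context of this site. The second HLTF 3′ splice site event is a tandem AG that adds or omits 3 bases of exon 13 at chr3:149059805-149059807, and there the upstream site is the canonical one. Its level was 0.825, 0.72 and 0.662 in the WT libraries and 0.605, 0.694 and 0.778 in the MT libraries. The libraries of the 2 genotypes overlapped, and the difference was -0.0433 ± 0.0691 (SE). Exon 20 itself, which follows the 12-base site, was included in nearly all reads. Its short form had a level of 1 in 5 libraries and 0.97 in the third MT library, and its long form had 1 in the same 5 libraries and 0.957 in that library. The difference between the genotypes was thus at the start of exon 20, while its inclusion stayed at or above 0.957 in every library.

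A cassette exon of 100 bases in an HLTF intron, at chr3:149052045-149052144, was almost always skipped. It lies in 1 of the 9 annotated transcripts, and its length is not a multiple of 3, so that its inclusion shifts the frame. Its level was 0.014, 0.008 and 0.032 in the WT libraries and 0.004, 0.005 and 0.004 in the MT libraries. Every MT library was below every WT library, but the difference of -0.0137 ± 0.00722 (SE) was small, with an unadjusted p of 0.231 and an adjusted p of 0.856 in limma. The remaining HLTF cassette exons were constitutive in these cells. Exon 3, the tested HLTF event with the most reads (309), had a level of 1 in 5 libraries and 0.991 in the second MT library. Exon 24 had 0.993 in the third WT library and 1 in the other 5 libraries, and both forms of exon 13 had at least 0.993 in every library. Exons 8 and 15 had a level of 1 in every library and could not be tested. In all, 8 of the 9 HLTF cassette events were at or above 0.95 in every library.

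SHPRH, the ligase related to HLTF, had alternative 3′ splice sites at similar distances, but its upstream sites were rarely used in either genotype. The site that adds 27 bases (chr6:145933179-145933205) had levels of 0.057, 0.014 and 0.076 in the WT libraries and 0.038, 0.032 and 0.054 in the MT libraries. The site that adds 19 bases (chr6:145945638-145945656) had levels of 0.02, 0.016 and 0.021 in the WT libraries and 0.036, 0 and 0.014 in the MT libraries. WT and MT libraries overlapped at both sites, with differences of -0.00767 ± 0.0195 and -0.00233 ± 0.0106 (SE), at 52.1 and 67.2 mean reads. PRIMPOL had a tandem site that adds 3 bases to an untranslated part of exon 3. Its level was 0.873, 0.898 and 0.769 in the WT libraries and 0.836, 0.91 and 0.946 in the MT libraries, which overlapped, and the difference was 0.0507 ± 0.0511 (SE) at only 22.9 reads.

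The bases that lead to these upstream sites differed between the 2 genes, and are shown because the branch point and the pyrimidine tract of a 3′ splice site lie in this stretch. Each line gives the 30 bases that end at the upstream AG, which is in capitals.
HLTF, 12-base event (chr3:149041681-149041710): acaaaccttgctctgaaattaatttttcAG
HLTF, 3-base event (chr3:149059808-149059837): aaaatttaagattctttgttgttttatcAG
SHPRH, 27-base event (chr6:145933206-145933235): ctgaagtcacacttgggattttctttctAG
SHPRH, 19-base event (chr6:145945657-145945686): ttttcattttaattattttgactgatttAG
The 12-base HLTF event had 10 adenines and 17 pyrimidines in this window. The medians over the 5351 tested A3SS events were 5 adenines and 19 pyrimidines, and 6 and 17 over those with 10 to 30 bases between the sites. Of all these events, 10.5% had at least as many adenines as HLTF and 32.6% had as few pyrimidines or fewer. The SHPRH windows had 6 and 7 adenines, and the window of the 3-base HLTF event had 9. At least 10 adenines thus did not occur in the other member events, but the window of the 3-base HLTF event, whose level did not separate the genotypes, had nearly as many. Over the A3SS events tested, 98.7% of upstream and 99.5% of downstream sites ended in AG in the GRCh38 genome, so the coordinates of the table fit that build.

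SHPRH had its largest differences elsewhere. A stretch of 333 bases inside canonical exon 2, chr6:145954854-145955186, is listed as a retained intron, and it was also the SHPRH event with the most reads (158). Its level was 0.946, 0.789 and 0.955 in the WT libraries and 0.96, 0.763 and 0.78 in the MT libraries. The libraries overlapped, and the difference was -0.0623 ± 0.0829 (SE). It ranged from -0.0267 without the second MT library to -0.125 without the first. A cassette exon of 133 bases in an intron (chr6:145951791-145951923), whose inclusion shifts the frame, differed by as much in the other direction. Its level was 0.067, 0.124 and 0.124 in the WT libraries and 0.077, 0.172 and 0.253 in the MT libraries, with a difference of 0.0623 ± 0.0543 (SE). The third MT library lay above all others, but the first lay within the WT range. The 6 other SHPRH cassette events were at or above 0.914 in every library.

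RAD18, which starts the ubiquitination of PCNA, was spliced almost uniformly. Its tested event with the most reads was the inclusion of exon 10 (138 reads), with a level of 0.957 in the first MT library and 1 in the other 5 libraries. Its largest difference was at exon 9, which had levels of 1, 0.965 and 1 in the WT libraries and 0.958, 1 and 0.924 in the MT libraries. These libraries overlapped, with a difference of -0.0277 ± 0.0249 (SE). The other cassette exons of RAD18, exons 2 and 4, were at or above 0.943 in every library.

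SMARCAL1, an annealing helicase, included its coding exons in nearly all reads. Its largest difference was at exon 6, an exon of 51 bases, with a level of 1 in every WT library and of 0.949, 1 and 0.93 in MT libraries. The second MT library equalled the WT libraries, and the difference was -0.0403 ± 0.0209 (SE) at 34.8 reads. A second event on the same exon, which pairs it with other flanking exons and had 64.2 reads, gave 1, 0.973 and 1 in the WT libraries and 0.979, 1 and 1 in the MT libraries, a difference of 0.002 ± 0.0114 (SE). The lower level of exon 6 in MT was thus not seen in this second event, whose difference lay within its error. The SMARCAL1 event with the most reads, exon 8 (113 reads), had a level of 0.987 in the second MT library and 1 in the other 5 libraries.

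ZRANB3, the other annealing helicase, had the most events (30) but few reads for each, with a median of 44.7 against 202 for HLTF. Its best covered event, exon 7 (102 reads), had a level of 0.98 in the third MT library and 1 in the other 5 libraries. Its largest difference was in a mutually exclusive pair of exons of 168 and 19 bases, with a mean of 16.6 reads. The level of the 168-base exon 2 was 0.642, 0.473 and 0.666 in the WT libraries and 0.749, 0.893 and 0.568 in the MT libraries. The libraries overlapped, and the difference of 0.143 ± 0.112 (SE) was close to its error. It was 0.0648 without the second MT library and 0.227 without the third. Further events on the same pair of exons had more reads, and their differences went both ways, -0.0683 at 24.3 reads and 0.0677 at 36.1 reads. The second ZRANB3 event with a difference above 0.1, on exon 4, had 10.1 reads and rested on 1 WT library with a level of 0.6, while the other 5 libraries had 1. In all 14 mutually exclusive events of the 6 genes, at least 1 annotated transcript holds both exons of the pair. Such a transcript can add reads to both forms, but whether it also holds the flanking exons of the event was not checked.

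PRIMPOL, the primase, had the fewest reads, with a median of 21.8 per event. Its event with the most reads was the longer form of exon 3 (38.7 reads), with levels of 0.8, 0.818 and 0.915 in the WT libraries and 0.95, 0.93 and 0.846 in the MT libraries. The shorter form of the same exon had the largest PRIMPOL difference. Its level was 0.667, 0.636 and 0.886 in the WT libraries and 0.9, 0.862 and 0.727 in the MT libraries, a difference of 0.1 ± 0.0946 (SE). Without the second WT library it was 0.0532, and without the third it was 0.178. In both forms of exon 3 the WT and MT libraries overlapped, and both share the exon's end and its skipping reads.

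**Figure D2:**
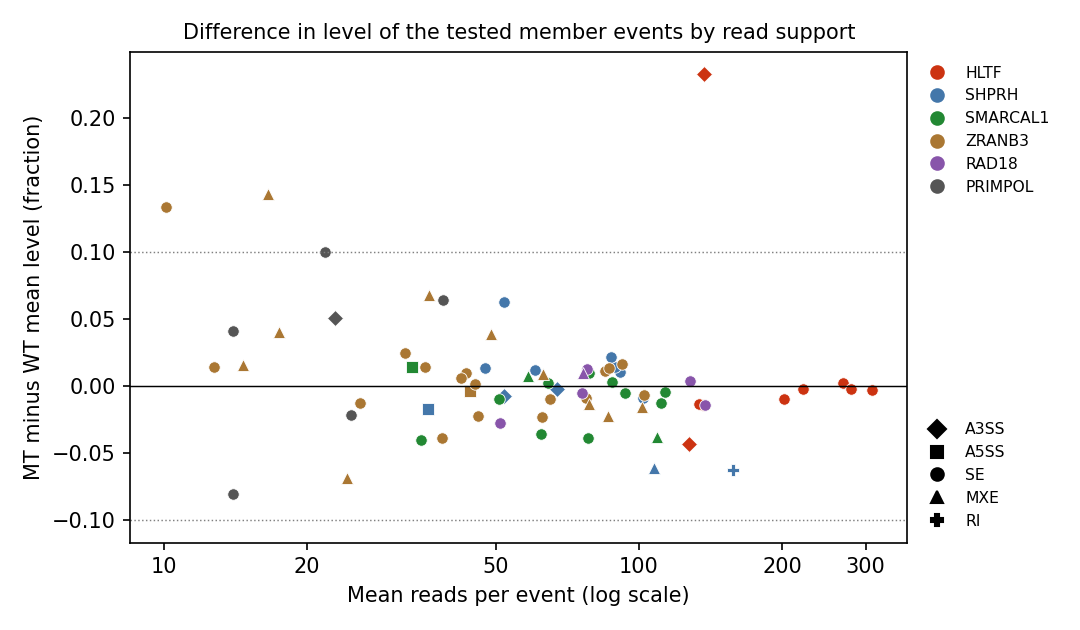
Difference of the mean levels, MT minus WT (vertical axis, fraction), against the mean reads of the event (horizontal axis, log scale) for the 74 tested events of the 6 genes. Colours are genes, symbols are event types and dotted lines mark differences of 0.1 in either direction. The 12-base HLTF event, at 0.233 and 137 reads, stands above all others, and the remaining differences of 0.1 or more belong to ZRANB3 and PRIMPOL events with at most 21.8 reads.

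Among the 65 tested events of SHPRH, SMARCAL1, ZRANB3, RAD18 and PRIMPOL, WT and MT libraries were separate in 0, and the smallest unadjusted p in limma was 0.0597. The smallest adjusted p among them was 0.856. The standard errors of the largest ZRANB3 and PRIMPOL events, 0.112 and 0.0946, were about as large as a difference of 0.1, so a shift of that size in them could not be told from the spread between libraries. Across all 6 genes, 62 of the 74 tested events (83.8%) differed by less than 0.05, against 82.7% of all events tested.

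The HLTF event was then set beside the alternative 3′ splice site events of other genes. By unadjusted p in limma it ranked 17 among 5351 such events and 33 among all 83581 events. Events with 10 to 30 bases between the sites, the class of the 12-base HLTF event, numbered 997. In this class 10.3% of events had every MT library above every WT library, against 5.76% at a spacing of 3 bases, 3.25% at 4 to 9 bases and 3.08% above 30 bases. Over all spacings the share was 4.77%. In the same class 4 events were called in limma, and 20 had a difference at least as large as that of HLTF, HLTF included. Over all alternative 3′ splice site events, 0.224% were called.

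The 5 events of other genes with the most similar levels in the 6 libraries, by the root mean square (RMS) of the differences in level and among events with at least 50 reads, were in ZDHHC16, ARL6IP4, DLST, THOC1 and HIF1A. The closest was a site in ZDHHC16, a palmitoyltransferase, that adds 21 bases (RMS 0.0509). Its level was 0.07, 0.045 and 0.153 in the WT libraries and 0.446, 0.368 and 0.319 in the MT libraries, and it passed the threshold with an adjusted p of 0.0414 in limma. Its levels in WT cells spread over a wider range than those of HLTF. The site in DLST, a subunit of the 2-oxoglutarate dehydrogenase complex, adds 19 bases and had 236 reads. It gave 0.047, 0.069 and 0.059 in the WT libraries and 0.293, 0.455 and 0.365 in the MT libraries, with an adjusted p of 5.94e-05 in limma. DLST thus differed from HLTF mainly by its lower level in WT cells. ARL6IP4 (24 bases) and THOC1 (21 bases), whose product belongs to the THO complex of mRNA export, had differences of 0.151 and 0.151, and HIF1A (3 bases), the hypoxia-inducible transcription factor, had 0.0957. Their adjusted p-values in limma were 0.717, 0.665 and 0.856, so 2 of the 5 passed the threshold. Since these events were picked for their levels, their differences are a description.

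**Figure D3:**
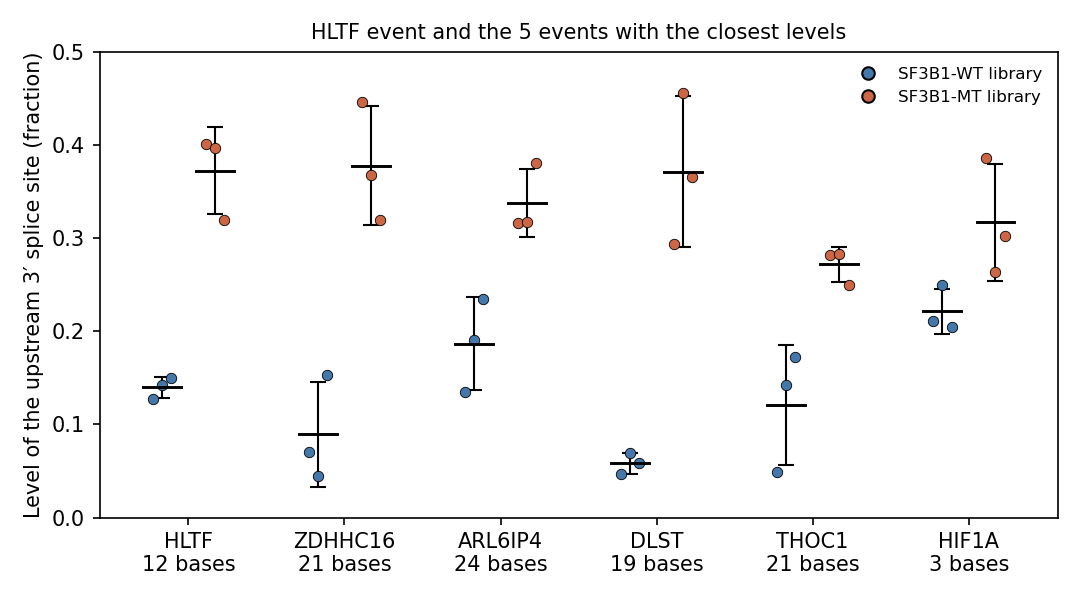
Level of the upstream 3′ splice site (vertical axis, fraction) of the 12-base HLTF event and of the 5 events with the closest levels, each named with its number of added bases. Points are single HEK293T libraries (blue WT, orange MT), and bars are the mean ± SD of 3 libraries. MT libraries lie above WT libraries in each event, with a mean of 0.372 in MT cells for HLTF, 0.378 for ZDHHC16 and 0.371 for DLST.

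To see how the wider fork machinery was spliced, a list of 44 other genes was used, with fork protection factors, nucleases, helicases, translesion polymerases and factors of PCNA ubiquitination among them. All 44 had a tested event, and they had 546 in all. In limma 0 of these events were called higher in MT, against 0.0132% of all events, and 0 were called lower, against 0.0179%. In all, 30 (5.49%) had an unadjusted p under 0.05, near the 4.47% of all events. WT and MT libraries were separate in 31 events (5.68%), of which 15 were higher and 16 lower in MT, again near the 5.46% of all events. The median absolute difference over the 546 events was 0.0107. The 31 separate events lay in 17 genes, with 5 of them in EXO1. Some of them share bases of an exon, so they are not independent. Of these 31 events, the 3 with the largest differences were in EXO1, RADX and POLI. In EXO1, an exonuclease that resects DNA ends, a mutually exclusive exon of 178 bases had levels of 0.881, 0.855 and 0.938 in the WT libraries and 0.824, 0.723 and 0.608 in the MT libraries (adjusted p = 0.756 in limma). In RADX, which protects forks by binding single-stranded DNA, an exon of 161 bases had 0.784, 0.734 and 0.879 in the WT libraries and 0.692, 0.7 and 0.524 in the MT libraries (adjusted p = 0.856 in limma). In POLI, a translesion polymerase, an exon of 237 bases had 0.9, 0.789 and 0.875 in the WT libraries and 0.953, 1 and 1 in the MT libraries (adjusted p = 0.856 in limma). None of the 3 was an alternative 3′ splice site event, and both lower and higher levels in MT were among them. The same EXO1 exon is also listed as a cassette exon. There its mean level was 0.993 in WT and 1 in MT cells in a first event, and 1 and 0.98 in a further event. Other mutually exclusive events with this exon also had lower mean levels in MT. These were 0.355 in WT and 0.278 in MT cells in a first such event, and 0.948 and 0.896 in a further one. WT and MT libraries overlapped in both, and why the events on this exon differ was not tested.

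R-loops, in which RNA pairs with one DNA strand, were mapped over the same 6 genes by DRIP-seq in another cell line, the pre-B leukaemia line Nalm-6. Its isogenic SF3B1-WT (K700K) and SF3B1-MT (K700E) cells gave 2 untreated and 2 RNase H-treated (RNH1) libraries each, and each library has its own peak list. Peaks that touch a gene or the 3000 bases upstream of it were counted. With 2 libraries in each group no test was made. In untreated DNA the 6 genes together had 39 and 52 peaks for the WT libraries and 99 and 122 for the MT libraries. The lists as a whole had 123841 and 131230 peaks for the WT libraries and 254430 and 296808 for the MT libraries, so the 6 genes held 0.0315% and 0.0396% of the WT peaks and 0.0389% and 0.0411% of the MT peaks. Among all untreated peaks, the share of the 6 genes thus overlapped between the genotypes. Both the number of peaks over the 6 genes and the size of the lists were higher in MT. The RNH1-treated libraries showed the same order, with 13 and 29 peaks over the 6 genes for WT and 74 and 69 for MT, in lists of 35091 and 77725 peaks against 202148 and 199155. Depth, which no column of the lists gives, and genotype cannot be told apart in these counts.

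In HLTF there were 5 and 6 peaks in the untreated WT and 7 and 8 in the untreated MT libraries, with the highest fold enrichment at 5.67 and 7.51 in WT and 13.4 and 16 in MT. After RNH1 treatment HLTF still had 2 and 5 peaks for the WT libraries and 4 and 6 for the MT libraries, with fold enrichments of up to 21.5. In SHPRH the untreated libraries had 7 and 7 peaks for WT and 10 and 12 for MT. The counts in SMARCAL1 were 0 and 1 for WT and 8 and 10 for MT. ZRANB3, which spans 394 kb, had 17 and 26 in the WT libraries and 43 and 58 in the MT libraries. RAD18 had 8 and 11 in WT and 28 and 30 in MT, and PRIMPOL had 2 and 1 in WT and 3 and 4 in MT. In each of the 6 genes, both untreated MT libraries had more peaks than both WT libraries. The lists as a whole were also longer in both MT libraries, and the share of all genes with this order was not computed. The order therefore cannot be called particular to the 6 genes. When only untreated peaks that shared no base with an RNH1 peak of the same genotype and replicate were kept, the 6 genes had 31 and 32 peaks for the WT libraries and 49 and 64 for the MT libraries. These were 0.0306% and 0.0371% of the 101420 and 86285 peaks kept from the WT lists, and 0.0393% and 0.0422% of the 124767 and 151829 kept from the MT lists. Unlike the shares of all untreated peaks, these shares did not overlap between the genotypes, which was not tested. How many peaks this filter removes depends on the length of the RNH1 lists, which were longer in MT. At the HLTF event, from the upstream exon to the end of exon 20, 0 peaks were found in any of the 8 libraries, so none of the HLTF peaks lay at its alternative 3′ splice site. This stretch, chr3:149041490-149042290, is a small part of the 56.4 kb gene. With so few peaks in HLTF, a count of 0 there says little about the site.

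**Figure D4:**
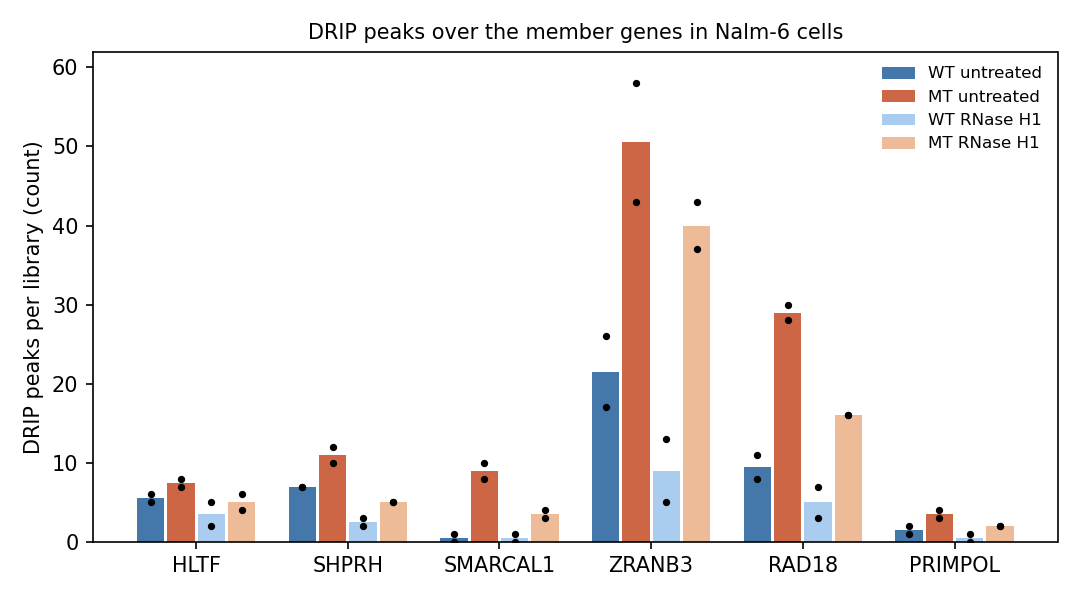
DRIP peaks per library (vertical axis, count) that touch each of the 6 genes or the 3000 bases upstream in Nalm-6 cells. Bars are means of 2 libraries and points are single libraries, for untreated and RNase H-treated (RNH1) WT and MT cells. The untreated MT libraries have the highest mean in every gene, with the highest single count in ZRANB3 (58), and every gene keeps peaks in the treated MT libraries.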

How the data were processed

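The deposited splicing table covers HEK293T RNA-Seq, with columns of levels for 3 SF3B1-WT and 3 SF3B1-MT libraries. Methods name stranded libraries and the rMATS model, and the submitters' processing notes list STAR and StringTie and the GRCh38 build. Levels deposited by the authors are fractions, with the length-normalised reads of the longer form divided by those of both forms. The table also gives the authors' mean reads for each group, over the 3 WT and all 6 listed MT values, form lengths and the authors' own differences and p-values, which were not used. It lists 6 MT values for each event, of which 3 have a column. These equal positions 1, 2 and 6 of the list in every event. They were taken as the MT libraries of the labels, which is not shown, and without replicate numbers. MT libraries are therefore named here by column order. Another 6 columns with lists of per-library values were not used, and for that reason no count model was fitted and the read total of each library is unknown. The reads of an event limit the precision of its level.

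Levels were transformed as the arcsine of the square root and compared by limma (3.58.1, R 4.3.3) with a variance trend on mean reads. All 83581 events with at least 10 mean reads, 6 levels and more than 1 distinct level entered. P-values were adjusted by Benjamini-Hochberg over all of them, and an event was called at an adjusted p under 0.05 and a difference above 0.1. The fit was tested on simulated data. Exact permutation tests were two-sided.

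The deposited DRIP-seq lists hold narrow peaks called for each of the 8 Nalm-6 libraries by itself. Methods give BWA-MEM and MACS2. The authors' fold enrichment of each peak is a ratio over the local background. Peaks were counted over the genes of the GENCODE annotation.

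The 6 genes, the list of 44 fork genes, the spacing classes and the tests were chosen with earlier results of these data known. Events were named by rule: all tested HLTF events, the event with the largest difference and the one with the most reads of each gene, events with separate libraries and a difference of at least 0.05, in the fork list the 3 largest separate events, and the 5 events most similar to HLTF. The second events on SMARCAL1 exon 6, SHPRH and ZRANB3 exon 4, the remaining alternative 3′ splice sites and the untested exons were added after their values were seen. So were the further events on the ZRANB3 exon pair and the cassette and other mutually exclusive events of the EXO1 exon. Alternatives were another transformation, other read minimums, no variance trend, leaving out each library, another adjustment and other ways to count peaks.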

Additional observations from a re-analysis of the deposited data

How the results depend on the processing

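The difference at the HLTF site was 0.233 under every alternative run that kept all libraries, since these runs do not change its levels. With each library left out in turn it lay between 0.218 and 0.259. It could not change direction there, because its WT and MT libraries do not overlap. Its adjusted p in limma was 0.447 with a logit transformation, 0.052 with at least 20 reads, 0.0612 with no read minimum, 0.262 without the variance trend, 0.0847 with events of 1 level kept and from 0.293 to 0.88 with 1 library left out. With adjustment within event type, chosen after the data had been seen, it passed the threshold (difference 0.233, adjusted p 0.00669), and the member events called became 1 in place of 0. Under every other alternative run, 0 member events and 0 events of the fork list were called. The number of events called in the whole table was 26, and fell to 3 with the logit transformation, to 0 without the variance trend and to between 3 and 13 with 1 library left out (3 without the first MT library and 13 without the third). It was 37 with events of 1 level kept, 33 with adjustment within event type, 29 with a difference above 0.05, 26 with at least 20 reads and 19 with no read minimum. None of the largest events of SHPRH, SMARCAL1, ZRANB3, RAD18 and PRIMPOL passed under any alternative run, and that of ZRANB3 dropped out with at least 20 reads. With 1 library left out they kept their direction, from -0.125 to -0.0267 for SHPRH, -0.0605 to -0.0255 for SMARCAL1 (without the second and without the third MT library), 0.0648 to 0.227 for ZRANB3, -0.0473 to -0.00933 for RAD18 (without the second and without the third MT library) and 0.0532 to 0.178 for PRIMPOL. The mean difference in untreated DRIP peaks over the 6 genes, 65 more in MT, was 30.5 with a fold enrichment of at least 4 and 25 without peaks that overlapped an RNH1 peak. The cause of these changes was not tested. No paired analysis was possible because the MT columns of the splicing table carry no replicate numbers from the labels, and the DRIP-seq counts were not tested.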
